A study of Mus musculus with 2 samples.

Results

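Sptb, Ank1, Epb41, Epb42, Slc4a1, Rhag, Rhd and Kel encode proteins of the red cell membrane and of the skeleton beneath it. They were selected on their ratio between the 2 libraries described here, seen in an earlier look at these data, and for their shared place in the red cell. All 8 were found by symbol among the 55348 gene entries of the count tables. RNA was measured in embryonic mouse hearts of strain 129sv at E13.5, in mid-gestation, by RNA sequencing, with 1 library from wild-type hearts and 1 from Lmna H222P/H222P hearts. Lmna encodes the A-type lamins, which line the inside of the nuclear envelope, and mice homozygous for the H222P amino acid change develop muscular dystrophy and cardiomyopathy. Every cell of such an embryo carries the change, and neither library had a further treatment. How many hearts, and of which sex, went into a library was not given in the sources used here. With 1 library per genotype each difference is one between 2 libraries, without replicates and without a p-value, and all 95% intervals cover counting error only.

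The mature red cell has no nucleus, and its shape and elasticity come from a protein net under the membrane. Long spectrin tetramers are held to the membrane at a pair of sites. At the ankyrin complex, ankyrin-1 ties spectrin to the anion exchanger band 3, with protein 4.2 and the Rh proteins alongside. At the junctional complex, protein 4.1 joins spectrin to short actin filaments and to glycophorin C, near the Kell and XK proteins. The transcripts are made by nucleated precursors, which in the mid-gestation mouse embryo mature in the fetal liver and, in the primitive lineage, in the circulation. Some of the genes also serve other tissues: spectrin, ankyrin-1 and protein 4.1 have forms in striated muscle and brain.

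The heart label and the other cells in the libraries were checked by marker lists. The 14 cardiomyocyte markers summed to 33165 CPM (reads relative to the scaled library size) in wild type and 16991 CPM in H222P, and 8 of them were at least 2-fold lower in H222P. Erythroid precursor markers were at least 2-fold higher in H222P for 16 of 19 genes (median log2 ratio 2.85), with their sum at 766 and 3364 CPM. All 15 hepatocyte markers were at least 2-fold higher, with their sum at 35.5 and 6262 CPM and a median log2 ratio of 8.13, or 7.64 with Fabp1, listed at 0 in wild type, set at its bound. All 7 measured platelet markers were also at least 2-fold higher (27.9 and 218 CPM summed), but only 1 of 9 macrophage and leukocyte markers was (119 and 117 CPM). Lmna itself was at 66.7 CPM in wild type and 70.4 CPM in H222P, a log2 ratio of 0.08 (−0.01 to 0.17), and gene counts do not show which allele a read carries. Reads on genes numbered 32669225 in the wild-type and 25120790 in the H222P library.

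All 8 red cell genes had more scaled reads in the H222P library, and 7 of 8 were at least 2-fold higher. Among the 14716 genes that averaged 1 CPM or more, called measured here, 5.95% were at least 2-fold higher and 4.35% at least 2-fold lower. The 8 genes had a median log2 ratio of 3.26, against −0.01 over all measured genes. These genes were put together with the difference between these libraries already known, so their count and direction describe the libraries and support nothing further. The sum of their reads went from 366 CPM in wild type to 1416 CPM in H222P, 3.87-fold (3.79 to 3.95). In whole-heart RNA more cells of a type and more RNA per cell cannot be told apart. How much RNA of blood or liver tissue adds to these values was not tested. The genes lie apart in the genome (mm10 coordinates of GENCODE M21), apart from Epb41 and Rhd, which share chromosome 4 at 131923413 to 132075321 (minus strand) and 134864536 to 134896172 (plus strand). Rhag lies on chromosome 17 at 40811126 to 40840754 (plus), Kel on chromosome 6 at 41686330 to 41704339 (minus) and Epb42 on chromosome 2 at 121017891 to 121037072 (minus). Slc4a1 lies on chromosome 11 at 102348824 to 102366203 (minus) and Sptb on chromosome 12 at 76580488 to 76710547 (minus).

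The Rh proteins stood highest. Rhag, the Rh-associated glycoprotein, an ammonia and gas channel that the Rh complex needs to reach the membrane, had 57 reads in the wild-type library (1.84 CPM, 1.39 to 2.38) and 2308 in the H222P library (87.1 CPM, 83.6 to 90.8). That is 47.0-fold higher (36.4 to 62.7), and 0.700% of measured genes had a larger ratio. Rhd, the single mouse gene that stands for the human RHD and RHCE blood group genes, had 118 reads (3.81 CPM) and 2504 reads (94.5 CPM), 24.7-fold higher (20.6 to 30.1). Both were low in the wild-type heart, and in H222P they lay close to each other. The counting intervals of their ratios did not overlap, with Rhag ahead of Rhd by 0.93 on the log2 scale (0.47 to 1.40).

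Protein 4.2, Kell and band 3 came next. Epb42 encodes protein 4.2, a transglutaminase relative without enzyme activity that binds band 3, and had 170 reads (5.49 CPM) in wild type and 1792 (67.7 CPM) in H222P, 12.3-fold higher (10.5 to 14.5). Slc4a1, band 3 itself, the chloride and bicarbonate exchanger, had 1967 reads (63.5 CPM) and 14375 reads (543 CPM), 8.55-fold higher (8.16 to 8.97). Of the 8 genes Slc4a1 added the most reads, a difference of 479 CPM, while its ratio was only the fifth. Kel, the Kell blood group endopeptidase, had 151 reads (4.87 CPM) and 1399 reads (52.8 CPM), 10.8-fold higher (9.16 to 12.9). Epb42 and Kel did not differ in ratio beyond counting error (0.19 on the log2 scale, −0.15 to 0.52).

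The skeleton genes had the smallest ratios, and Epb41 and Sptb had the most reads of the 8 in the wild-type library. Ank1, ankyrin-1, had 893 reads (28.8 CPM) in wild type and 2433 (91.9 CPM) in H222P, 3.19-fold higher (2.95 to 3.45). Sptb, the erythroid beta spectrin, had 2613 reads (84.3 CPM) and 6301 reads (238 CPM), 2.82-fold higher (2.69 to 2.95). Epb41, protein 4.1, had 5374 reads (173 CPM) and 6403 reads (242 CPM), 1.39-fold (1.34 to 1.45), and was the only one of the 8 inside the 2-fold bounds. The order from Rhag to Epb41 therefore spanned 5.55 to 0.48 on the log2 scale, and apart from Epb42 and Kel each gene differed from the next by more than counting error.

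**Figure D1:**
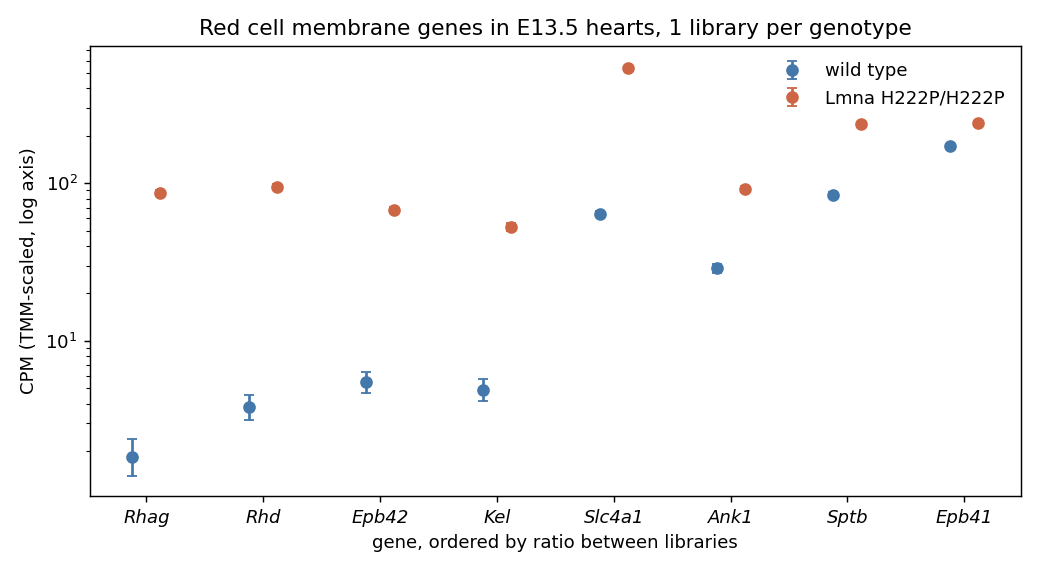
Level of each of the 8 genes in CPM on a log axis, in the wild-type library (blue) and the Lmna H222P/H222P library (orange), with exact Poisson 95% intervals for counting error. The 4 genes on the left lie between 1.84 and 5.49 CPM in wild type, whereas Epb41 on the right is at 173 and 242 CPM.

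Reads per kilobase of exons and per library (RPKM, scaled as CPM) put the genes on one scale of level. In the wild-type heart Slc4a1 was highest at 12.98 RPKM, followed by Epb41 at 10.9 and Sptb at 6.94. The others lay between 2.39 RPKM (Rhd) and 0.786 RPKM (Rhag). Among these the counting intervals of Rhd, Ank1 and Kel all overlapped each other, as did those of Epb42 and Rhag. In the H222P heart Slc4a1 was again first at 111 RPKM, but Rhd (59.3 RPKM) and Rhag (37.3 RPKM) now followed it. Sptb (19.6 RPKM) and Kel (19.0 RPKM) overlapped, and Epb41 (15.2 RPKM), Epb42 (12.5 RPKM) and Ank1 (6.79 RPKM) closed the order. Rhag thus went from the last place to the place behind Rhd. Epb41 and Ank1 depended on the length used. With the longest transcript in place of all exons, Epb41 was at 20.9 RPKM in wild type, above Slc4a1 at 14.0, and at 29.1 RPKM in H222P, above Sptb and Kel. Ank1 was then at 3.44 RPKM in wild type, above Rhd at 2.52, and at 11.0 RPKM in H222P, where it stayed last.

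Ank1 is one gene with long red cell forms and short forms of striated muscle, where small ankyrin-1 anchors the sarcoplasmic reticulum. In GENCODE M21 it lies on chromosome 8, 22974844 to 23150497 of mm10, plus strand. There it has 9 protein-coding transcripts of 42 to 45 exons and 3 of 3 to 5 exons, which begin between 23139030 and 23139277, and 1 more of 26 exons that does not reach them. The antisense gene Gm15816 overlaps 862 exon bases there, 35.4% to 92.4% of each short transcript but only 2.40% to 4.62% of each long one. Reads in the shared bases are ambiguous when strand is ignored, so the strand columns bound their number. This split was made after the values were seen.

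Between 350 and 409 Ank1 reads of the wild-type library and between 365 and 398 of the H222P library lay in the bases shared with Gm15816. Scaled, these are 11.3 to 13.2 CPM and 13.8 to 15.0 CPM, a log2 ratio between 0.06 and 0.41. The remaining Ank1 reads numbered 484 to 543 and 2035 to 2068, or 15.6 to 17.5 CPM and 76.8 to 78.1 CPM, a log2 ratio between 2.13 and 2.32. The ratio was thus smaller in the shared bases than in the rest of the gene. These ranges are the extremes that the strand columns allow and hold no counting error. A shared-base ratio of 0 is therefore not shown to lie outside counting error. The shared bases are not the whole of the short transcripts, whose other bases are counted with the rest. Whether the reads of the shared bases came from short or long transcripts cannot be told from gene counts. Of 6 measured genes of the muscle calcium store and its ankyrin anchor, 0 were at least 2-fold higher and 1 was lower (median log2 ratio −0.68). The share over all measured genes was 5.95% higher and 4.35% lower. Atp2a2, the pump that refills that store, had a log2 ratio of −0.60 and Jph2, which holds the store near the surface membrane, −0.80. Cardiomyocyte markers were lower too, as given above, and their part in the Ank1 values was not tested.

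**Figure D2:**
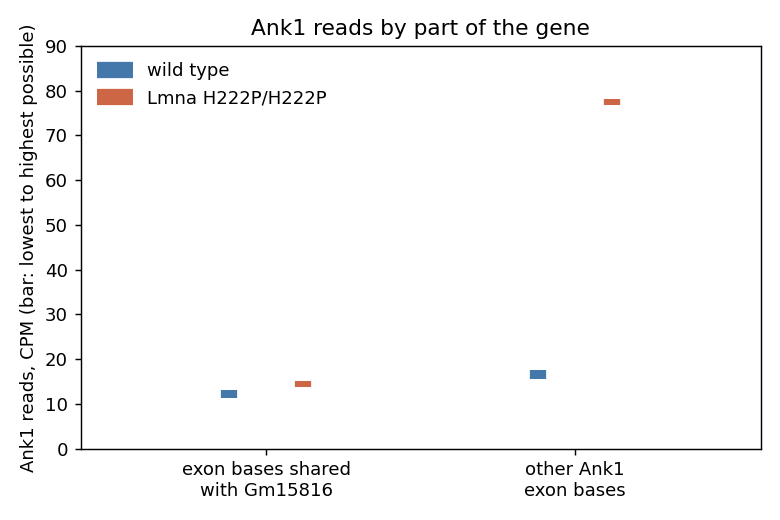
Ank1 reads in CPM in exon bases shared with the antisense gene Gm15816 and in the other exon bases, each bar running from the lowest to the highest value that the strand columns allow, for wild type (blue) and Lmna H222P/H222P (orange). The shared bases lie at 11.3 to 13.2 CPM in wild type and 13.8 to 15.0 CPM in H222P, and the other bases at 15.6 to 17.5 CPM in wild type and 76.8 to 78.1 CPM in H222P. The bars hold no counting error.

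The same ratios were set against the blood RNA in each library. Globin genes summed to 364650 reads in wild type and 463779 in H222P, 1.49-fold higher (1.48 to 1.49). Of the 7 globins 2 were at least 2-fold higher, beside 5.95% of all measured genes. These 2 were the embryonic genes Hbb-bh1 (log2 ratio 3.36) and Hba-x (1.55). Hbb-y, also embryonic and the most abundant, had a log2 ratio of 0.27. In their counted reads the adult-type genes went both ways, with Hbb-bs at 0.96, Hbb-bt at 0.55, Hba-a2 at −0.25 and Hba-a1 at −0.32. Hba-a1 had 50002 reads in wild type and 34142 in H222P, and Hba-a2 2223 and 1598. Only reads with a unique place in the genome were counted for a gene. The globin sum and the ratios per globin read rest on such reads alone. How many globin reads were left out was not tested. The 8 red cell genes together had 31.1 reads per 1000 globin reads in wild type and 80.9 in H222P, a log2 ratio of 1.38 (1.35 to 1.41). Per globin read, 7 of 8 remained higher, from 4.99 for Rhag to 0.92 for Sptb on the log2 scale. Epb41 was at −0.09 (−0.15 to −0.04). The change of reference shifts every gene by almost the same amount, so this count is no separate support. The share of all measured genes higher per globin read was not computed.

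Against the summed reads of 19 erythroid precursor markers the picture split. The 8 genes together had 478 reads per 1000 marker reads in wild type and 421 in H222P. That is a log2 ratio of −0.18 (−0.22 to −0.15), opposite in sign to the ratio per globin read. The sum leans on Epb41, the lowest on this scale, which held 47.4% of the 8 genes' reads in wild type and 17.1% in H222P. On this scale Rhag (3.43), Rhd (2.50), Epb42 (1.49), Kel (1.30) and Slc4a1 (0.96) were above 0 and Ank1 (−0.46), Sptb (−0.64) and Epb41 (−1.66) below it. The markers themselves ranged more widely than the 8 genes, from 0.01 for Bpgm, which makes the red cell metabolite bisphosphoglycerate, to 8.51 (6.61 to 14.40) for the carbonic anhydrase Car1, with 1 and 467 reads. Tfrc, the transferrin receptor and the most abundant, had a log2 ratio of 2.24 and Hemgn, a nuclear protein of erythroid precursors, 7.08. Tfrc alone held 6937 of the 23719 marker reads in wild type and 28052 of 89105 in H222P. The erythroid factors Klf1 and Gata1 were at 6.56 and 5.14, the erythropoietin receptor Epor at 3.59 and the heme synthesis gene Alas2 at 0.56. The log2 ratios of Rhag (5.55) and Rhd (4.63) on the scale of all genes lay between those of Epor and Klf1, and that of Epb41 (0.48) near that of Alas2.

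**Figure D3:**
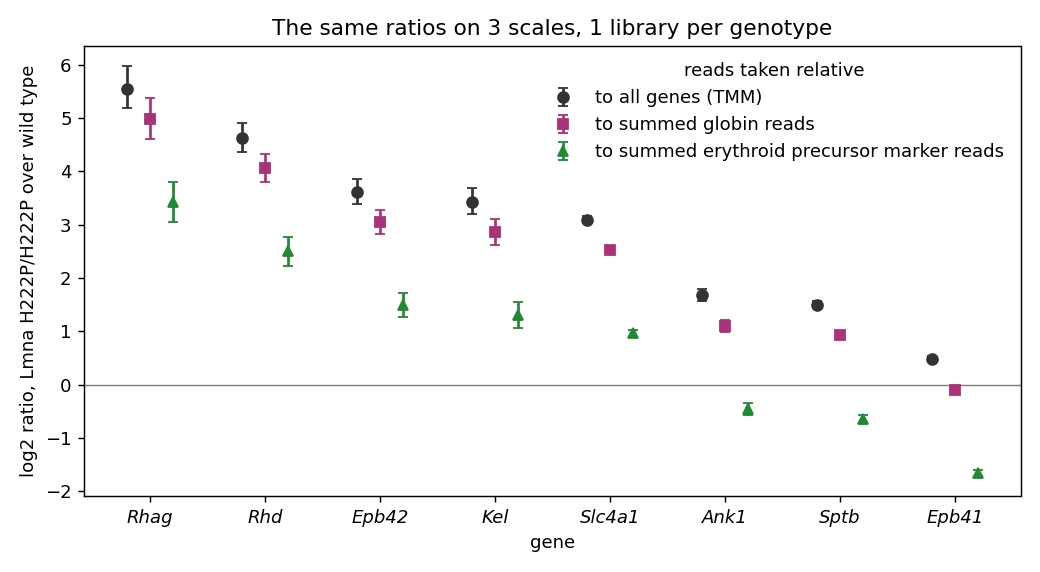
Log2 ratio of Lmna H222P/H222P over wild type for each of the 8 genes, with reads taken relative to all genes (circles), to summed globin reads (squares) and to summed erythroid precursor marker reads (triangles), with 95% intervals for counting error. A change of reference shifts all 8 genes by almost the same amount, and Epb41 moves from 0.48 to −0.09 and −1.66.

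The other proteins of the same membrane were described from lists of 37 genes, of which 36 were measured and only Abcb6 fell short of 1 CPM. At least 2-fold higher in H222P were 10 of the 36 (27.8%), at least 2-fold lower 1, and 25 lay between (median log2 ratio 0.26). Over all measured genes 5.95% were at least 2-fold higher and 4.35% at least 2-fold lower. In the ankyrin complex 3 of 4 partners were at least 2-fold higher. Among them Icam4, an adhesion protein of erythroblasts, went from 19 to 370 reads (22.2-fold, 14.4 to 38.3), and Cd47, a widely expressed signal against engulfment, was at a log2 ratio of 0.97.

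In the junctional complex 3 of 12 partners (25%) were at least 2-fold higher and 0 lower, with a median log2 ratio of 0.26. The share over all measured genes was 5.95% higher and 4.35% lower. The actin-capping beta adducin Add2 was 8.18-fold higher (7.21 to 9.35), the actin bundler dematin (Dmtn) 7.67-fold (6.51 to 9.14) and Xk, the transporter-like partner of Kell, 3.63-fold (3.22 to 4.096). The more widely expressed adducins Add1 and Add3 had log2 ratios of 0.14 and −0.20. Glycophorin C, Gypc, and its partner Mpp1 had 0.59 and −0.03. Tmod1 and Tpm1, which cap and coat actin in heart muscle as well as in red cells, had −0.72 and −0.81. None of the 12 was beyond 2-fold lower, and the cytoskeletal genes used by many cells, Actb and Tpm3, had 0.24 and 0.27.

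Of 20 other measured red cell membrane proteins, 4 (20%) were at least 2-fold higher, with log2 ratios from 3.72 to 4.98, and 1 was lower. The share over all measured genes was 5.95% higher and 4.35% lower. Ermap, an erythroid adhesion protein, went from 91 to 2468 reads (31.6-fold, 25.7 to 39.6) and the urea transporter Slc14a1 from 26 to 590 (26.1-fold, 17.9 to 41.0). Kcnn4, the calcium-activated potassium channel, was 14.2-fold higher (10.2 to 20.8) and the chemokine receptor Ackr1 13.2-fold (9.001 to 20.9). Cd55, a complement inhibitor, lay just inside the bound at 0.9999 on the log2 scale. Sema7a, a semaphorin, was at −1.37, and Bcam, a laminin receptor of vessels and epithelia as well as red cells, at −0.91. The widely expressed Stom, Piezo1, Bsg and Slc16a1 lay between −0.11 and 0.21.

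**Figure D4:**
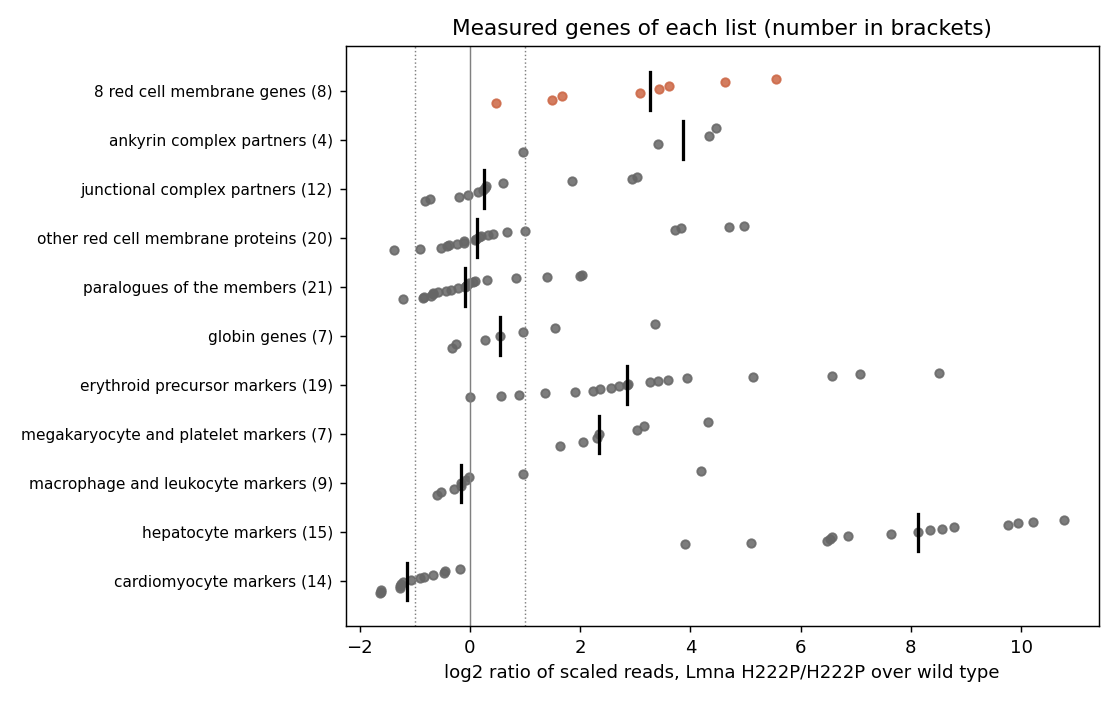
Log2 ratio of Lmna H222P/H222P over wild type for every measured gene of each list, 1 point per gene, with the list median as a black bar and dotted lines at 2-fold. The 8 red cell membrane genes (orange, median 3.26) lie near the erythroid precursor markers (median 2.85), and the paralogues (median −0.09) lie around 0.

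Each of the 8 genes has relatives that are used in other cells, some with other functions. Over all measured genes 5.95% were at least 2-fold higher and 4.35% at least 2-fold lower. Of 21 measured paralogues 3 were at least 2-fold higher (14.3%), 1 was lower and 17 lay between, with a median log2 ratio of −0.09. With so few genes, a difference of these shares from those of all genes was not tested. Among the 3 higher paralogues were Ecel1 (1.99) and Epb41l4b (1.40), both low, with 59 and 109 reads in H222P, and Epb41l4a was lower (−1.22). The general beta spectrin Sptbn1, the most abundant paralogue, had a log2 ratio of −0.43, and the general alpha spectrin Sptan1 −0.35. Ank2 and Ank3, the ankyrins of heart and nerve membranes, had −0.66 and −0.09. The anion exchangers Slc4a2 and Slc4a3 had −0.01 and −0.22, and Tgm2, the tissue transglutaminase, −0.82.

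In every family but that of the Rh proteins the share of the red cell member, as a percentage of the family's summed RPKM, was larger in H222P. The red cell members were selected on their ratio, so a larger share largely follows from that choice and is no separate support. Lengths were those of all exons, and shares with the longest transcript were not computed. Ank1 was counted whole, including the bases shared with Gm15816. Slc4a1 held 56.5% of the anion exchanger RPKM in wild type and 92.2% in H222P, and Ank1 30.3% and 62.6% of the ankyrins. Sptb held 11.4% and 32.4% of the beta spectrins, where Sptbn1 remained the main form in both libraries at 88.1% and 65.8%. The share of Epb41 among protein 4.1 genes was 27.8% and 40.1%. Kel held 4.82% and 36.6% of its peptidase family, led by Ece1, and Epb42 0.947% and 17.2% of the transglutaminases, led by Tgm2. The kidney and epithelial Rh glycoproteins Rhbg and Rhcg had 0 wild-type reads and 2 and 1 H222P reads, under the floor of 3 reads that a count of 0 allows (0.0968 CPM in wild type). Nearly all Rh family reads were therefore of the red cell members.

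**Figure D5:**
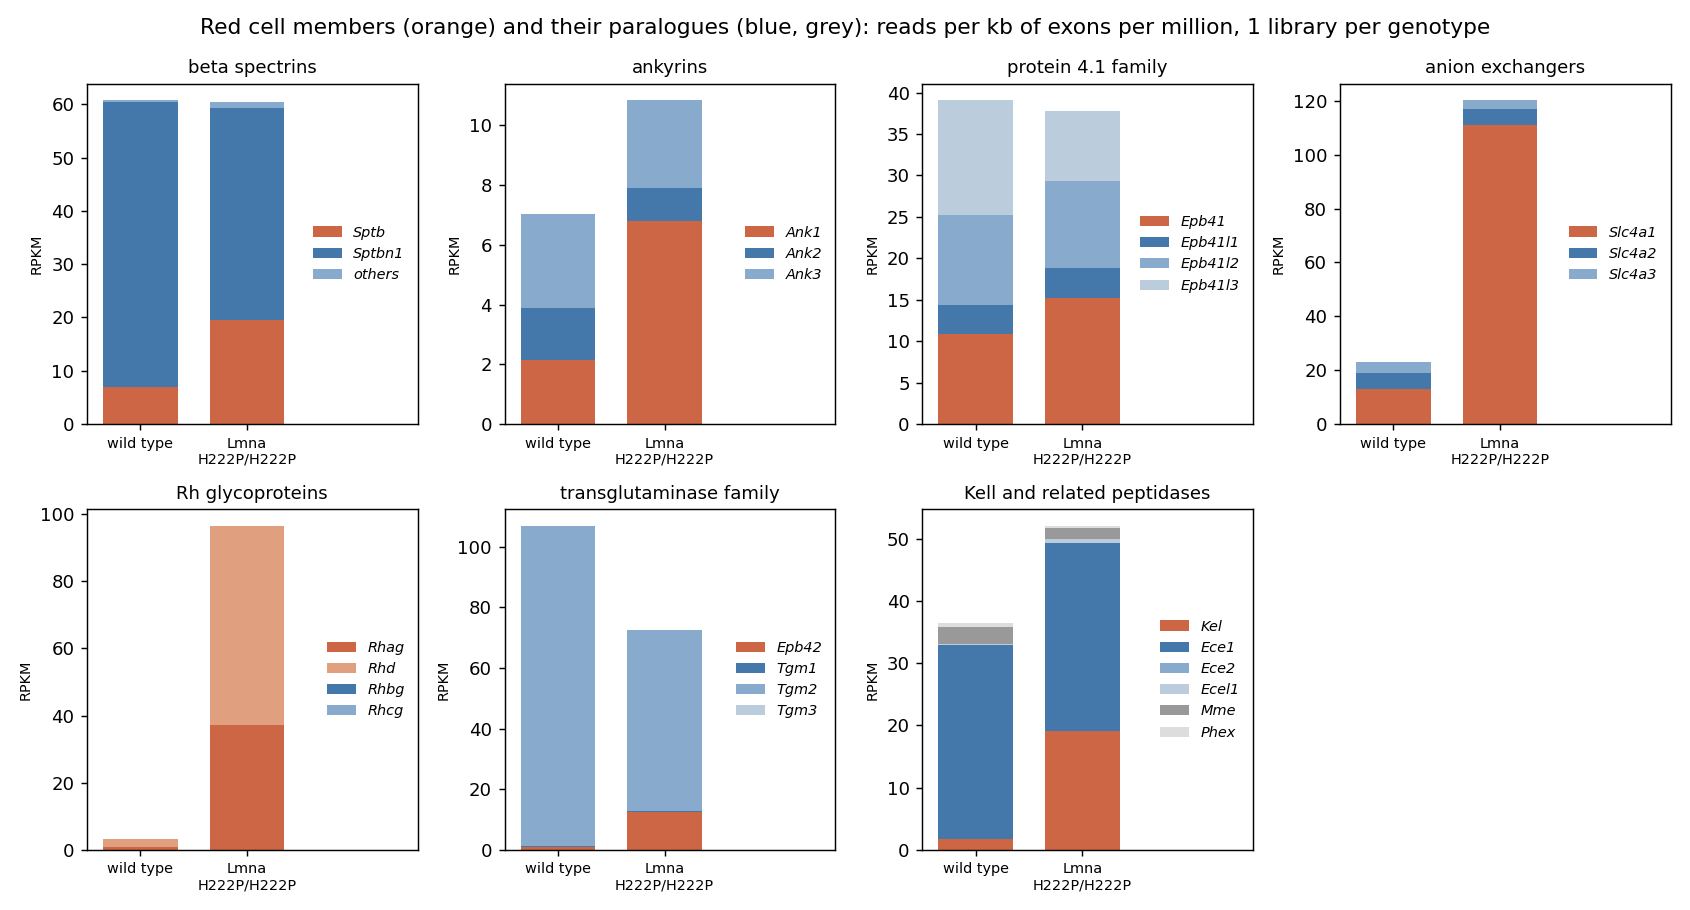
RPKM of each of the 8 genes (orange) stacked with its paralogues (blue and grey) by family, for the wild-type and the Lmna H222P/H222P library, with a separate axis from 0 for each family. Outside the Rh panel, which is orange almost throughout, the orange share is larger in H222P, from 11.4% to 32.4% of the beta spectrins and from 56.5% to 92.2% of the anion exchangers. The 8 genes were selected on their ratio, so a larger share largely follows from that choice.

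Promoter sequence was read to show what lies in front of genes with such different ratios. RefSeq windows (GRCm38.p6, the same assembly as mm10) were at hand for 6 of the 8 genes, all but Ank1 and Slc4a1. The 250 bases before the start site nearest to the GENCODE start were searched on both strands for the GATA words AGATAA or TGATAA as well as AGATAG or TGATAG, and for the KLF-type word CCNCNCCC. The words resemble the sites of the erythroid factors GATA1 and KLF1. They are short: 26.5% of 32851 promoter windows of the same length held a GATA word and 45.9% a KLF word. Shown 5′ to 3′ on the gene's strand, with every match in capitals, are the 4 genes with the largest ratios and, for contrast, Sptb.
Rhag, chr17:40810899-40811148, plus strand: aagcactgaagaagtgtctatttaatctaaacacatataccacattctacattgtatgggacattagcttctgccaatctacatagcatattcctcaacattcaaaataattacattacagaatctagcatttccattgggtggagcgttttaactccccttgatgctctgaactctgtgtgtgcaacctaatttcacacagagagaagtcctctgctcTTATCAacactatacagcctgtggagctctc
Rhd, chr4:134864286-134864535, plus strand: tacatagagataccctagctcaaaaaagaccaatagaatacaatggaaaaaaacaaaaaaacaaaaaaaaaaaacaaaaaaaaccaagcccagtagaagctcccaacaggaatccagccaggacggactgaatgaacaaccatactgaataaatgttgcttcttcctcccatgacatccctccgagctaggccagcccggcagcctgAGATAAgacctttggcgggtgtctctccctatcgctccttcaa
Epb42, chr2:121036878-121037127, minus strand: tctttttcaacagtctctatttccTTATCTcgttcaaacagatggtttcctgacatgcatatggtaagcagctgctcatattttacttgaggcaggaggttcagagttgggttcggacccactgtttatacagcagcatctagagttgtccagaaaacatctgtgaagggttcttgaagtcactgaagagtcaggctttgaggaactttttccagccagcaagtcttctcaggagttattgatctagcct
Kel, chr6:41704326-41704575, minus strand: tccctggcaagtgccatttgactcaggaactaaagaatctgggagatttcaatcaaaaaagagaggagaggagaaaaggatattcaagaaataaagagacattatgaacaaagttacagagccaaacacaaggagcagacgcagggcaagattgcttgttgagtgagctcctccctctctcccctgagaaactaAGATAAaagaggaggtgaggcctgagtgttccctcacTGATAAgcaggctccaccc
Sptb, chr12:76710548-76710797, minus strand: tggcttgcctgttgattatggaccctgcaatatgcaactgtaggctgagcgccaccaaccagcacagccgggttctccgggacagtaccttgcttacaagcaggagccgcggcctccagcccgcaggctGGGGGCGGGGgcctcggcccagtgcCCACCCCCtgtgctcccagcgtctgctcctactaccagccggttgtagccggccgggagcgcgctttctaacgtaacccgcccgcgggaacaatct

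A GATA word was present in 5 of the 6 windows, all but Sptb, and a KLF word in 2, Sptb and Epb41. Epb41 has 2 further RefSeq windows, 3224 and 26243 bases from the GENCODE start, without a GATA word, and with either of them the count would be 4 of 6. They held 0 and 6 KLF matches. Counted from the start site, the GATA word lay at −31 to −26 in Rhag and at −43 to −38 in Rhd. Kel held 2, at −56 to −51 and −19 to −14, and the word of Epb42 lay farther out at −226 to −221. Sptb held 3 KLF matches from −121 to −89, of which 2 overlapped. In its first window Epb41, the gene with the smallest ratio, had 3 KLF matches and 1 GATA word at −184 to −179. Among these 6 windows, those with a GATA word and no KLF word belonged to the 4 genes with the largest ratios, a pattern seen after the search and not tested. A match is a string of letters in this window, not a site shown to be bound.

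Outside the lists, the protein-coding genes averaging 5 CPM or more whose ratio lay nearest to the median of the 8 genes were Tspan32, Unc13d, 1300017J02Rik, Aass, Tubb1 and Myb. Likeness was the distance between log2 ratios over 2 libraries, and it ran from 0.03 for Tspan32 (64 and 540 reads) to 0.19 for Myb (71 and 515 reads). Tubb1 encodes the beta tubulin of platelets and Myb a transcription factor of blood progenitors, and Aass encodes an enzyme of lysine breakdown.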

How the data were processed

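Total RNA of embryonic hearts, isolated with a Zymo kit according to the labels, was sequenced. Each deposited file holds whole-number read counts by gene, made by the authors. STAR, HTSeq and DESeq and the build mm10 are named in the submitters' processing notes, without roles or versions. Reads mapped to several places (5.37% and 6.09% of reads) are not in the gene counts. The reverse-strand column, 19.3 and 20.5 times the forward one, was used. Entries that name no gene did not enter library sizes, and genes took up 82.8% and 82.0% of reads.

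Libraries were scaled by TMM (edgeR 4.0.16, R 4.3.3). Log2 ratios, Lmna H222P/H222P over wild type, had a prior count of 0.5, with exact Clopper-Pearson 95% intervals of the binomial share (Python 3.11.15, scipy 1.17.1). Ratios relative to globin or marker reads and differences between ratios had Woolf intervals, and levels exact Poisson ones. Since reads carry no molecular identifiers, they need not be independent molecules. With 1 library per genotype no test was run, and genes averaging 1 CPM or more were described by a 2-fold bound. Exon lengths and coordinates are from GENCODE M21 (mm10). The genes, lists and naming rule (every gene of the membrane, paralogue and globin lists, the extremes, most abundant and cell type markers of the others, and 6 genes of like ratio) were chosen with earlier results of these data known. Ahsp, on the erythroid list, was not analysed here, and some listed genes are counted but not reported by name. As alternatives the scaling was changed to total counts or to DESeq2 1.42.0, the minimum was dropped or raised to 5 CPM, the prior count was raised to 5, and other runs used the unstranded column, scaling without globin, erythroid and hepatocyte genes, a thinned wild-type library, erythroid markers as reference and transcript length. Only the log2 ratio and its binomial interval were tried on simulated counts, which were Poisson with known library sizes. Such counts meet the interval's own assumption. Scaling, levels per length, ratios to globin or marker reads, the Ank1 split and the motif search were not tried this way.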

Additional observations from a re-analysis of the deposited data

Results flagged for a closer look

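For Slc4a1 and Rhd the column of reads from the opposite strand, used above only to bound the Ank1 reads, was also higher in the H222P library. Slc4a1 had 4 such reads in wild type and 28 in H222P, a log2 ratio of 2.89 (1.52 to 5.01), and they made up 0.203% and 0.194% of its reads on both strands. Rhd had 2 and 9 such reads, a log2 ratio of 2.15 (0.12 to 5.65), or 1.67% (exact binomial interval 0.202 to 5.89) and 0.358% (0.164 to 0.679). The share of opposite-strand reads was thus no higher in H222P for either gene.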

How the results depend on the processing

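On the scale of all genes, the 8 ratios kept their sign under the 8 alternatives of scaling, minimum, prior count, strand column and depth. Under each, 7 of 8 genes stayed at least 2-fold higher. Dropping or raising the minimum cannot change a gene's own ratio, so agreement there was given. With erythroid markers as reference, Ank1 (−0.46), Sptb (−0.64) and Epb41 (−1.66) changed sign. The ratio of the summed reads, 1.95 on the log2 scale, was 2.10 with total counts, which moved the median of all genes from −0.01 to 0.15 and the higher share of genes beyond 2-fold from 57.8% (876 higher, 640 lower) to 70.6% (1076 and 449). Paralogues at least 2-fold higher numbered 3, but 7 without a filter and 1 with the minimum at 5 CPM, where fewer genes are counted. The ratio relative to globin reads, 1.38, became −0.18 relative to erythroid precursor markers, whose own summed ratio was 2.14 against 0.57 for globins. Both are ratios of summed reads, in which Epb41 made up 47.4% of the 8 genes' wild-type reads. Single ratios moved most for Ank1 (1.64 to 2.15, highest with the unstranded column, which drops the bases shared with Gm15816) and Rhag (5.38 to 5.71). No paired analysis was possible because each genotype had 1 library, and no library could be left out. Depth limits Rhag and Rhd most, with 57 and 118 wild-type reads.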
